A study of Mus musculus with 502 samples.

Results

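The windows described here are the unfinished ends of the 5 human acrocentric chromosomes: the short arm, the centromere and the first part of the long arm. Silencers were taken from 1 list for each of 3 cell lines, and a silencer was counted as a member when its midpoint lay in 1 of 5 windows on hg38. The windows start at 0 Mb and end at 18.9 Mb on chromosome 13, 19.5 Mb on chromosome 14, 21 Mb on chromosome 15, 13 Mb on chromosome 21 and 17.4 Mb on chromosome 22. They held 898 of 397136 silencers: 271 of 125249 from 293T, 369 of 134159 from K562 and 258 of 137728 from LNCap.

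Acrocentric chromosomes carry their centromere close to one end. Their short arms hold the arrays of ribosomal RNA genes around which the nucleolus forms, flanked by satellite repeats and by long segments duplicated between chromosomes. In hg38 much of these arms is a run of unknown bases, and the centromeres are filled with modelled satellite sequence, so a short read can often be placed at several positions or at none. A silencer is a DNA element that lowers transcription from a promoter. Ss-STARR-seq tests this on plasmids, away from the chromatin of the native locus.

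In the assay, genomic fragments were cloned into a reporter vector and sequenced both as plasmid DNA (input) and as RNA from transfected cells (output). K562 is a leukaemia line with erythroid features, LNCap a prostate cancer line that responds to androgen, and 293T a line of embryonic kidney origin that carries the SV40 large T antigen. The labels name no genotype change, treatment or time for any group. The protocol they share gives DMEM with serum as the medium of the 3 lines, and also mentions an induction medium without saying for which cells. The labels list 180 output libraries for K562, 179 output and 40 input libraries for LNCap, and 102 output and 1 input library for 293T. A K562 input library is not among them. Each of the 502 libraries is labelled as mouse, while the lines and the build are human. Each condition is a single line with a single list, so no replicate error exists and no p-value is given. The intervals below cover counting error only and take silencers as independent, which neighbouring silencers are not.

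The members covered only a small part of the windows. The lowest start in any list was 18175501 on chromosome 13, 16055950 on chromosome 14, 17013911 on chromosome 15, 5122401 on chromosome 21 and 10682451 on chromosome 22. Below these positions no list held a silencer. Further empty stretches of 1.55 to 2.53 Mb lay between members on chromosomes 14, 15, 21 and 22. On chromosome 13 the 56 members of the 3 lists thus fell within 0.715 Mb at the top of the window. On chromosomes 14 and 15, 33 of 35 and 84 of 93 members lay above the longest empty stretch. Chromosome 21 was the opposite case, with 358 of 359 members below it. Chromosome 22 had members on both sides, 136 below and 219 above. Which members lie on the short arm, in the centromere or on the long arm was not assigned, since no band table was used, and the members are called by their windows here.

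Chromosomes 21 and 22 held most members. They also had the most length in 100 kb bins with a silencer of any list, at 2.5 and 3.8 Mb. Chromosomes 13, 14 and 15 had 0.7, 0.9 and 1.5 Mb. On chromosome 21 the 293T list had 78 silencers, with a 95% exact Poisson interval of 61.7 to 97.3. K562 had 149 there (126 to 175), and LNCap 132 (110 to 157). On chromosome 22 the 293T list had 119 (98.6 to 142), while K562 had 148 (125 to 174) and LNCap 88 (70.6 to 108). K562 was the highest of the 3 in both, and 293T the lowest on chromosome 21. The chromosome 15 window had 41 silencers for 293T, 34 for K562 and 18 for LNCap. The chromosome 13 window had 18, 26 and 12, and the chromosome 14 window 15, 12 and 8. By count LNCap was thus the lowest of the 3 on chromosomes 13, 14, 15 and 22. Relative to list size, the LNCap to 293T ratio was 0.606 on chromosome 13 and 0.485 on chromosome 14. Their 95% exact conditional intervals, 0.266 to 1.33 and 0.178 to 1.22, include 1. On chromosomes 15 and 22 the ratio was 0.399 (0.216 to 0.711) and 0.672 (0.505 to 0.893).

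**Figure D1:**
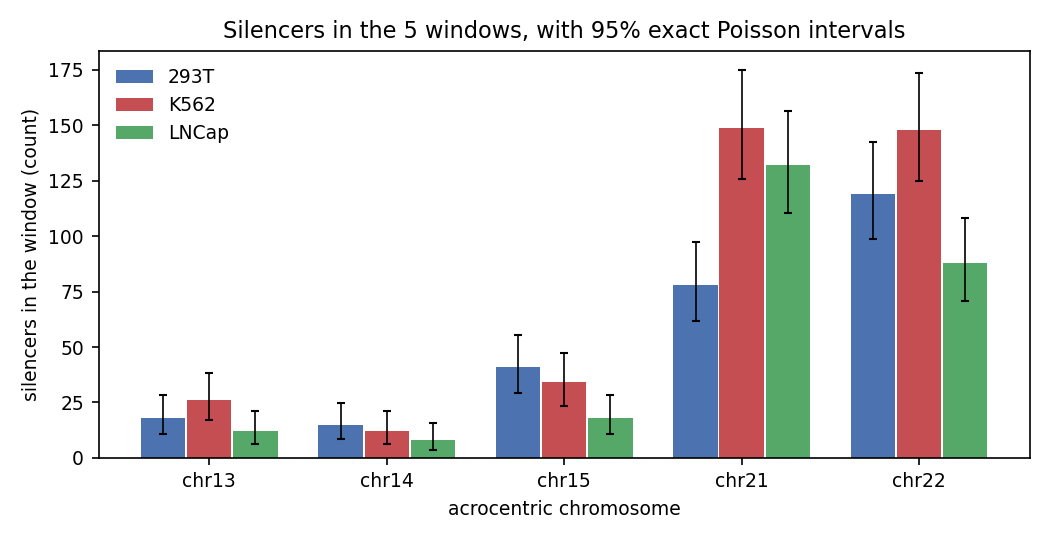
Number of silencers per window (y axis, count) on the 5 acrocentric chromosomes (x axis) in 293T, K562 and LNCap; bars are counts and lines are 95% exact Poisson intervals. On chromosome 21, K562 (149) and LNCap (132) stand above 293T (78), and on chromosome 22 LNCap (88) is the lowest.

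As a share of its list, K562 placed 0.275% of its silencers in the windows, 293T 0.216% and LNCap 0.187%. The K562 share was 1.27 times that of 293T (95% exact conditional interval 1.08 to 1.49) and 1.47 times that of LNCap (1.25 to 1.73). The LNCap share was 0.866 times that of 293T (0.727 to 1.03), an interval that includes 1. With silencers of a list within 500 bp merged, the K562 to 293T ratio was 1.09 (0.910 to 1.30), which includes 1, and the LNCap to 293T ratio 0.732 (0.600 to 0.893), which does not. On chromosome 21 the K562 to 293T ratio was 1.78 (1.35 to 2.38), and without that window it was 1.06 (0.873 to 1.30). Over the rest of the same 5 chromosomes the K562 to 293T ratio was 1.06 (1.03 to 1.08) and the LNCap to 293T ratio 1.05 (1.03 to 1.08).

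Per Mb of occupied 100 kb bins, meaning bins with at least 1 silencer of any list, the 5 windows pooled were sparser than the rest of the genome. The densities were 28.8 per Mb against 44.5 in 293T, a ratio of 0.647 (interval 0.573 to 0.729). They were 39.3 against 47.7 in K562, a ratio of 0.823 (0.741 to 0.912), and 27.4 against 49.0 in LNCap, a ratio of 0.560 (0.494 to 0.633). This direction belongs to the size of the bins. Per occupied 10 kb bin the ratios were 1.18, 1.50 and 1.02. The silencers thus lay in fewer 10 kb bins per occupied 100 kb than elsewhere. In 293T and K562 such a bin held more of them on average. The 10 kb ratios were not taken without the dense stretches described below, which held 129 of 369 members in K562. Among scores above the list median, the K562 ratio at 100 kb was 1.02 (0.882 to 1.18). Occupied bins were redefined there from those silencers alone, so this ratio rests on another length and is not directly comparable. The chromosome 21 window alone was denser than the rest of the genome in K562, at 59.6 per Mb and a ratio of 1.25 (1.06 to 1.47), and its ratio was 1.08 (0.902 to 1.28) in LNCap and 0.701 (0.554 to 0.874) in 293T. Against the rest of chromosome 21 its ratio was 1.49 (1.25 to 1.77) in K562, 1.34 (1.12 to 1.61) in LNCap and 0.945 (0.742 to 1.19) in 293T.

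The silencers were unevenly placed. The bin on chromosome 21 from 10.6 to 10.7 Mb held 58 silencers in K562, 57 in LNCap and 14 in 293T. After scaling the lists to equal size it was the fullest of 28158 occupied 100 kb bins of the whole genome. It ranked 1 in LNCap, 2 in K562 and 124 (a rank shared by 92 bins) in 293T. The next bin, from 10.7 to 10.8 Mb, held 4, 24 and 28 silencers and ranked 29 in the genome. On the same chromosome the bin from 7.9 to 8 Mb held 8, 31 and 20 and ranked 18. On chromosome 22 the bin from 10.7 to 10.8 Mb held 5, 26 and 16 and ranked 93. In all 4 bins both K562 and LNCap were above 293T.

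The other 4 of the 8 fullest bins were nearer the genome's ordinary range. The bin on chromosome 22 from 17.2 to 17.3 Mb held 13, 17 and 9 silencers in 293T, K562 and LNCap and ranked 301. That from 17.1 to 17.2 Mb held 5, 10 and 7. The bin on chromosome 15 from 20.2 to 20.3 Mb held 12, 7 and 6, and that on chromosome 13 from 18.2 to 18.3 Mb held 3, 14 and 5. The last 3 ranked between 2404 and 3947.

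**Figure D2:**
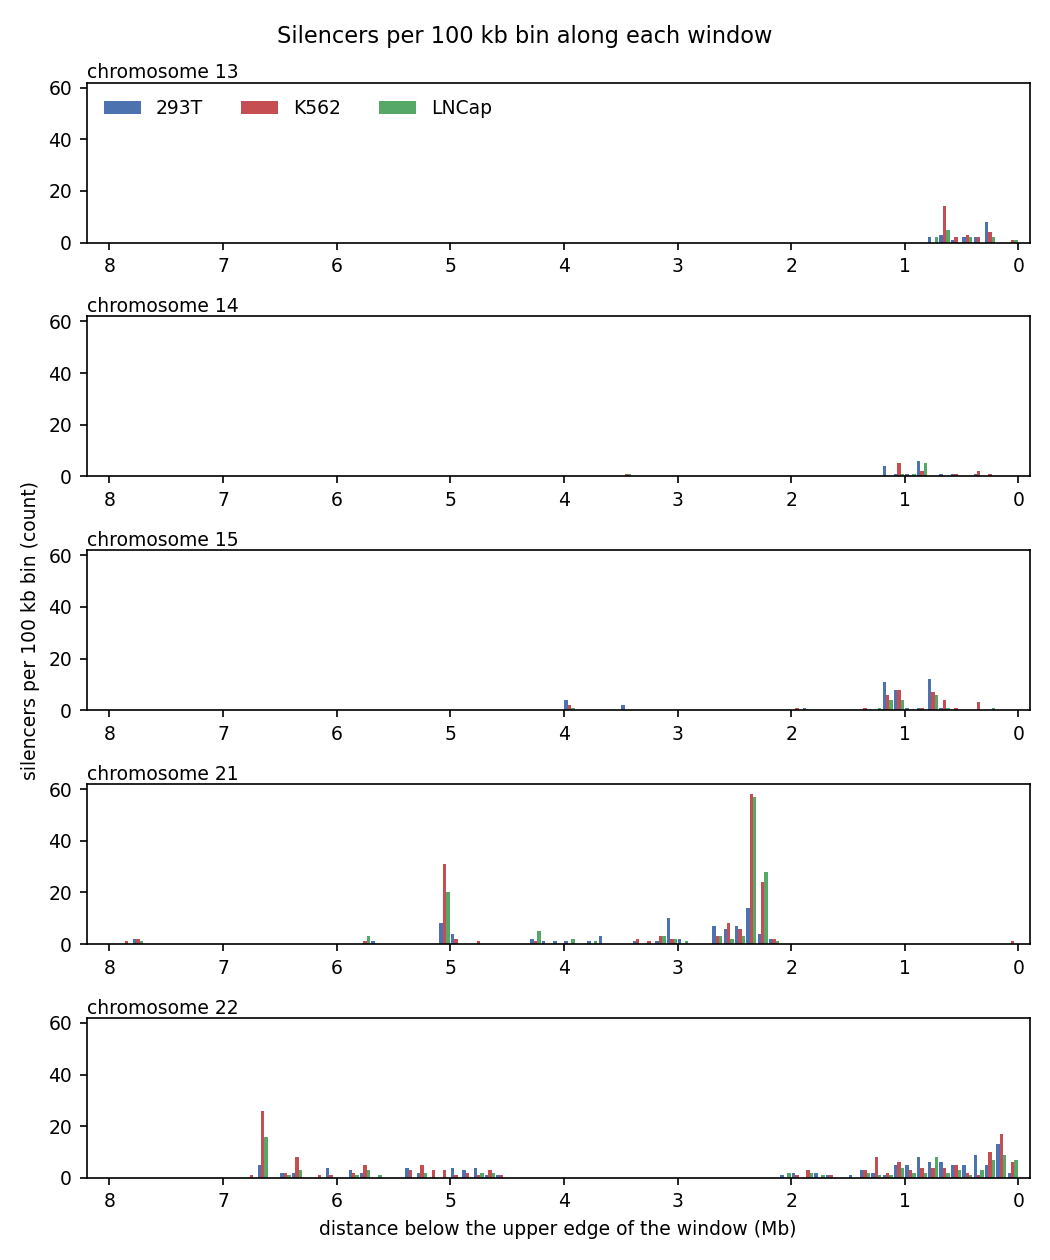
Silencers per 100 kb bin (y axis, count) against the distance below the upper edge of each window (x axis, Mb), with 1 panel per chromosome and bars for 293T, K562 and LNCap. The tallest bars are those of chromosome 21, with 58 silencers in K562 and 57 in LNCap against 14 in 293T; the second peak of that panel and the first of chromosome 22 also show K562 highest.

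To describe these peaks, members of the 3 lists were joined where gaps were at most 5 kb, and chains of at least 15 silencers were kept. This rule was set after the values were seen, so density in the chains is a description. It gave 3 dense stretches. They held 129 of 369 members in K562 (35.0%, 95% Wilson interval 30.3 to 40.0), 113 of 258 in LNCap (43.8%, 37.9 to 49.9) and 19 of 271 in 293T (7.01%, 4.53 to 10.7). Without them the K562 share of the list was 0.890 times that of 293T (0.743 to 1.07) in place of 1.27, and the LNCap share 0.524 times (0.424 to 0.645). The K562 to LNCap ratio was 1.70 (1.38 to 2.10) without them. Because the stretches were kept for a density that K562 and LNCap supplied, leaving them out must lower both lists against 293T. The K562 to LNCap ratio, 1.47 with the stretches kept, also depends on this choice, and the 3 values are a description only.

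The largest stretch lay at chr21:10650001-10744142, 94.1 kb long, with 84 silencers in LNCap, 81 in K562 and 10 in 293T. The K562 silencers covered 21.2% of its length, those of LNCap 21.2% and those of 293T 1.15%. Of the 81 in K562, 43 (53.1%) overlapped LNCap and 2 overlapped 293T. Of the 84 in LNCap, 42 overlapped K562. No chance level was computed for this overlap, and it is met more easily where much of a stretch is covered. By bases, 8619 were covered by both lists, 43.2% of the K562 and 43.1% of the LNCap bases. The median score there was 2.2 in K562 and 2.1 in LNCap, beside 2.2 in both in the rest of the genome, and the highest scores were 3.6 and 5.8. The LNCap silencer of score 5.8 lay at chr21:10671479-10671529 and overlapped a K562 silencer.

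**Figure D3:**
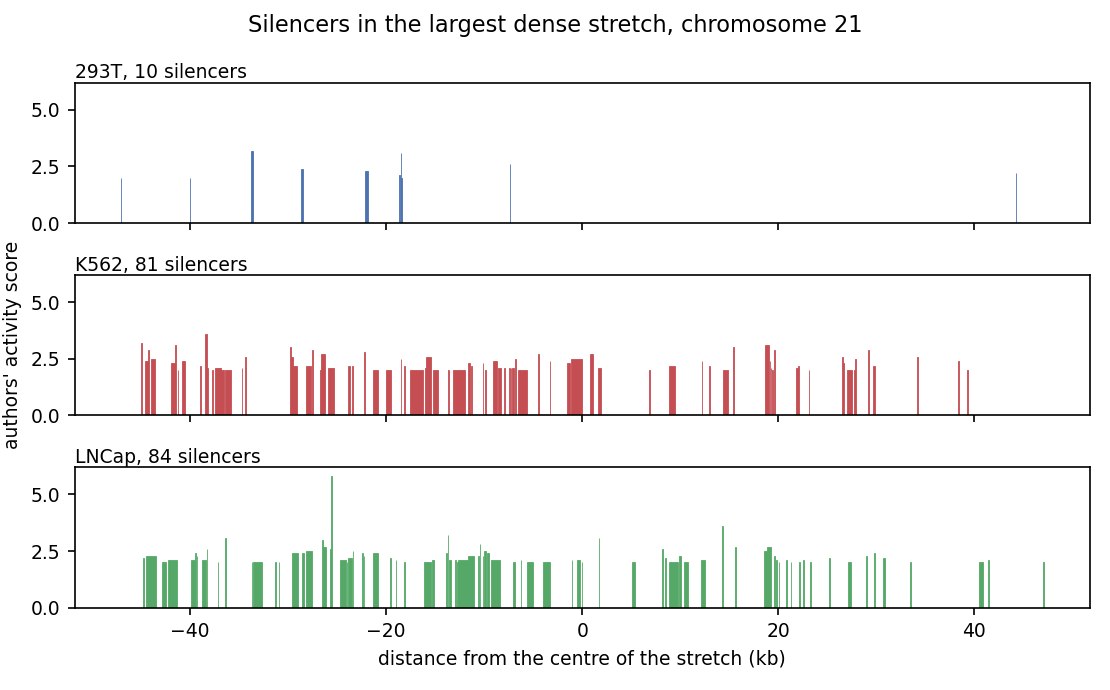
Silencers of the largest dense stretch of chromosome 21 in 293T, K562 and LNCap (1 panel each), drawn to scale by width against the distance from its centre (x axis, kb), with height giving the authors' activity score (y axis). The 81 silencers of K562 and 84 of LNCap each cover 21.2% of the stretch and share 8619 bases, while 293T has 10 silencers.

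The second stretch of the same chromosome lay at chr21:7915750-7957777, 42.0 kb long, with 31 silencers in K562, 20 in LNCap and 7 in 293T. Here 9 of the 31 in K562 overlapped LNCap and 8 of the 20 in LNCap overlapped K562. No 293T silencer overlapped K562 and 1 overlapped LNCap. The third lay at chr22:10713450-10732751, 19.3 kb long, with 17 silencers in K562, 9 in LNCap and 2 in 293T. The 2 of 293T were among the strongest members of that list, with scores of 5.1 (chr22:10713450-10713500) and 7.7 (chr22:10726700-10726801). The second of them lay within a K562 silencer at chr22:10726650-10726801, which scored 2.1.

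Runs of at least 5 silencers of 1 list with gaps up to 500 bp were found 6 times in K562, 5 times in LNCap and 0 times in 293T. Such runs were not counted in the rest of the genome, so no background share stands beside these counts. All 11 lay in the dense stretches, 8 of them in the largest. The stretches were chosen for density, which favours runs inside them, so this placement is a description. The longest in LNCap had 14 silencers over 5500 bp at chr21:10683201-10688701, where K562 had 8 silencers and 293T none. The longest in K562 had 10 silencers over 4001 bp at chr22:10726000-10730001, where LNCap had 5 and 293T 1. How uniquely reads map in these stretches, and whether the lines differ there in copy number or in the input they were called against, was not tested.

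Lines were compared in each 100 kb bin with at least 10 silencers over the 3 lists, which 27 of the 94 occupied bins in the windows had. A bin counted as high for a line over 2 times the mean of the other lists after scaling, and as low under 0.5 times. 293T was high in 9 of 27 bins (33.3%), against 14.3% of such bins in the genome, and low in 8 (29.6%), against 17.9%. K562 was high in 5 (18.5%, genome 8.32%) and low in 3 (11.1%, genome 15.6%). LNCap was high in 0 (genome 9.13%) and low in 10 (37.0%, genome 15.9%). With 1 list per line and few silencers per bin these are descriptions, and a bin can count for more than 1 line.

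The bins low for 293T were those of the dense stretches and 4 others. The ratios were 0.264 and 0.167 on chromosome 21 (from 10.6 and 10.7 Mb), 0.339 there from 7.9 Mb and 0.258 on chromosome 22 from 10.7 Mb. The others were chromosome 13 from 18.2 Mb (0.341) and chromosome 22 from 17.3 Mb (0.334), 11 Mb (0.392) and 16.1 Mb (0.477). K562 was high in 5 of these 8: chromosome 22 from 16.1 Mb (5.13 times), 11 Mb (3.16 times) and 10.7 Mb (2.48 times), chromosome 13 from 18.2 Mb (3.46 times) and chromosome 21 from 7.9 Mb (2.21 times). In the other 3 the K562 ratio was 1.64 and 1.52 on chromosome 21 (from 10.6 and 10.7 Mb) and 1.34 on chromosome 22 from 17.3 Mb. Each line is set against the mean of the other lists, so a low 293T count raises the K562 ratio. The pairing of 293T low with K562 high is thus partly built into the measure.

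The bins high for 293T lay elsewhere. The highest ratio was on chromosome 21 from 9.9 to 10 Mb, with 10 silencers in 293T against 2 in K562 and 2 in LNCap (5.43 times), so that K562 and LNCap both counted as low there (0.316 and 0.307 times). The next was on chromosome 22 from 17 to 17.1 Mb, with 9 silencers against 1 and 3 (4.92 times; K562 low at 0.159 times). The other 7 had 293T ratios of 2.00 to 2.88. They began at 18.6 Mb on chromosome 13, at 19.8 and 20.2 Mb on chromosome 15, at 10.3 Mb on chromosome 21, and at 16.4, 16.5 and 16.7 Mb on chromosome 22. K562 was also low on chromosome 14 from 18.6 Mb (0.354 times).

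LNCap was low in 5 of those 9 bins besides the first. These were chromosome 13 from 18.6 Mb (0.310 times), chromosome 15 from 19.8 Mb (0.438 times) and chromosome 22 from 16.4, 16.5 and 16.7 Mb (0.466, 0.310 and 0.374 times). It was low too on chromosome 15 from 19.9 Mb (0.470 times), on chromosome 21 from 10.4 and 10.5 Mb (0.270 and 0.433 times) and on chromosome 22 from 16.1 Mb (0.192 times). None of the bins low for LNCap was a bin of the dense stretches. On chromosome 21 its counts from 10.6 and 10.7 Mb ranked 1 and 7 in its list. Its count there from 7.9 Mb ranked 95 (shared by 31 bins), and that on chromosome 22 from 10.7 Mb ranked 332 (shared by 145). The stretches were chosen for density, so high counts in them are a description.

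Overlap of at least 1 bp was counted for each pair of lists. Of K562 members, 80 of 369 overlapped a LNCap silencer (21.7%, 95% Wilson interval 17.8 to 26.2), against 15.7% of the whole K562 list. Of LNCap members, 81 of 258 overlapped K562 (31.4%, 26.04 to 37.3), against 15.4% of the LNCap list. In the dense stretches 44.2% of K562 (35.9 to 52.8) and 50.4% of LNCap silencers (41.4 to 59.5) overlapped. Outside them 9.58% of K562 members (6.47 to 13.97) and 16.6% of LNCap members (11.4 to 23.4) did. This split is a description, since the stretches were chosen for density and overlap is met more easily where silencers are dense. Overlapping K562 members were also wider, with a median width of 150 bp against 51 bp where LNCap was not met, and a wide silencer meets the 1 bp rule more easily.

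Overlap with 293T was low. Of 293T members, 12 of 271 overlapped K562 (4.43%, 2.55 to 7.58), beside 3.3% of the whole list, and 8 overlapped LNCap (2.95%, 1.50 to 5.72), beside 3.58%. In the other direction 12 of 369 K562 members overlapped 293T (3.25%, 1.87 to 5.60; whole list 3.03%) and 8 of 258 LNCap members did (3.10%, 1.58 to 6.00; whole list 3.23%). All 4 intervals include the value of the whole list. In the dense stretches 3 of 19 silencers in 293T overlapped K562 and 3 overlapped LNCap (15.8% each, 5.52 to 37.6), and outside them 3.57% and 1.98% did. Silencers that overlapped both other lists were 2 for 293T (0.738%), 3 for K562 (0.813%) and 2 for LNCap (0.775%). These shares were near the 0.787%, 0.804% and 0.794% of the whole lists. Altogether 253 of 271 members in 293T, 280 of 369 in K562 and 171 of 258 in LNCap overlapped no other list. These are 93.4%, 75.9% and 66.3%, beside 93.9%, 82.1% and 82.2% in the rest of the genome, so that 293T was near the value elsewhere.

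**Figure D4:**
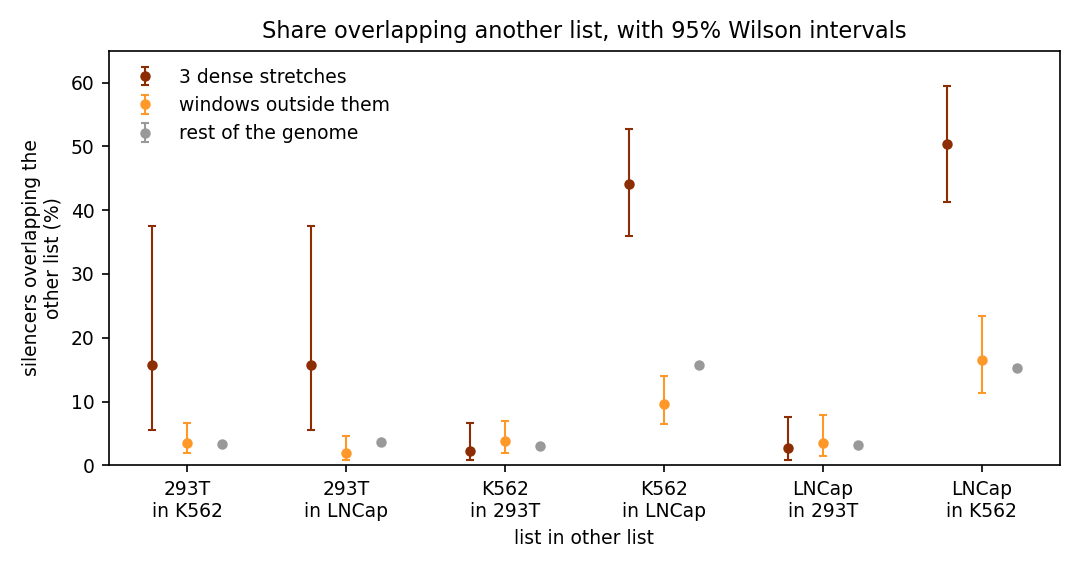
Share of silencers that overlap another list (y axis, %) for the 6 ordered pairs of lists (x axis), in the 3 dense stretches, in the windows outside them and in the rest of the genome; points are shares and lines 95% Wilson intervals. The highest shares are those of K562 with LNCap in the dense stretches, 44.2% and 50.4%, and the 293T points there rest on 19 silencers.

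The lists merged to 788 regions in the windows, of which 66 (8.38%, 6.64 to 10.5) were held by K562 and LNCap and not 293T, against 5.11% of regions genome-wide. Regions of 293T with K562 numbered 8 (1.02%, genome 0.763%), and of 293T with LNCap 5 (0.635%, genome 0.856%), both near the genome's share. Regions with silencers of all 3 lists numbered 5 (0.635%, interval 0.271 to 1.48), beside 0.372% genome-wide. These 5 were all on chromosome 22 and outside the dense stretches. A region joins silencers in a chain, and only in 1 of the 5, at chr22:16624401-16624701, did each list overlap both others. In the other 4, 1 pair of lists was joined through the remaining list.

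The first of the 5 lay at chr22:11629701-11630251, with scores of 2.5 for 293T, 2.2 for K562 and 2.4 for LNCap. The second, at chr22:16432651-16432801, scored 2.4, 2.5 and 2.4, and is the narrowest at 150 bp. The third, at chr22:16624401-16624701, scored 2.2, 2.5 and at most 3.2, with 2 LNCap silencers. The remaining pair, at chr22:17275101-17275321 and chr22:17291997-17292201, lie in the bin from 17.2 to 17.3 Mb. They scored 2.3, 2.5 and 2.9, and 2.7, 3.0 and 3.4. None of these scores was among the 5 highest of its list in the windows.

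The strongest members in K562 and LNCap were at 1 place. On chromosome 14 the K562 silencer chr14:16056000-16056100 scored 8.0 and lay within the LNCap silencer chr14:16055950-16056250, which scored 7.3. They were the only members below 18 Mb on that chromosome and were followed by 2.27 Mb with none in any list. In K562 only 11 of 134128 finite scores were higher, and in LNCap 47 of 137715. 293T had no silencer there. Its own first member on that chromosome was chr14:18330701-18330801, with a score of 2.2.

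The other high scores lay on all 5 chromosomes. After the score of 7.7, exceeded by 17 of 125247 finite scores in 293T, that list had members of 5.6 (chr22:12031551-12031601), 5.1, 5.0 (chr22:12596601-12596651) and 4.9 (chr14:18522201-18522251). Of these 5, the silencer of score 7.7 overlapped K562 and the others overlapped no list. In K562 the next were 4.3 (chr15:20655547-20655597), 4.2 (chr15:19911900-19912100), 4.0 (chr13:18607950-18608001) and 3.9 (chr21:7922453-7922503), and the silencer of score 4.2 overlapped LNCap. In LNCap they were 5.8, 5.0 (chr21:9863901-9863951), 4.7 (chr22:17378327-17378377) and 4.5 (chr22:17184001-17184051). The last of these was listed at the same start and end in K562, where it scored 3.4.

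Most members scored near the lowest deposited score of 2. The median was 2.4 in 293T (quartiles 2.2 and 2.8), 2.3 in K562 (2.1 and 2.6) and 2.3 in LNCap (2.1 and 2.6). In the rest of the genome the medians were 2.3, 2.2 and 2.2. In 293T, 57.6% of members (51.6 to 63.3) were above the median of their own list, against 43.7% elsewhere. The shares were 50.9% (45.9 to 56.0) against 46.4% in K562 and 51.9% (45.9 to 58.0) against 49.4% in LNCap, both with intervals that include the value elsewhere. No member had an infinite score. Among 91 overlapping pairs of K562 and LNCap silencers, 67 of them in the dense stretches, the Spearman correlation of the scores was 0.23; the pairs share positions and the scale of the score is unknown.

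Wide silencers were frequent in the dense stretches in K562 and LNCap. Silencers wider than 300 bp made up 30 of 129 in K562 within the stretches (23.3%, 16.8 to 31.3) and 26 of 113 in LNCap (23.01%, 16.2 to 31.6). Outside the stretches they were 2.50% (1.15 to 5.35) and 2.07% (0.706 to 5.91), beside 2.29% and 2.26% in the rest of the genome. In 293T no silencer of the stretches (0 of 19, interval to 16.8%) and 10 of 252 outside them (3.97%, 2.17 to 7.15) were wider than 300 bp, beside 1.38% elsewhere. Whether width and density are separate measures was not tested.

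**Figure D5:**
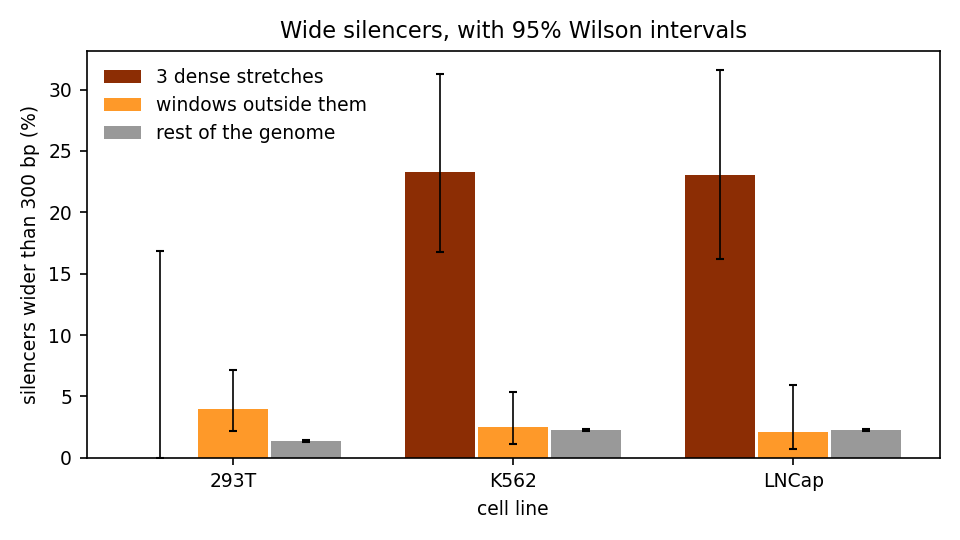
Share of silencers wider than 300 bp (y axis, %) in 293T, K562 and LNCap (x axis) in the 3 dense stretches, in the windows outside them and in the rest of the genome; bars are shares and lines 95% Wilson intervals. In the dense stretches 23.3% of K562 and 23.01% of LNCap silencers are wide, and none of 19 in 293T.

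The widest member of K562, chr21:10679542-10680801, measured 1259 bp at a score of 2.0. It was followed by chr21:10683851-10685101 (1250 bp) and chr21:10695901-10697101 (1200 bp). The widest of LNCap were chr21:10652551-10653601 (1050 bp), chr21:10684451-10685401 (950 bp) and chr21:10687801-10688701 (900 bp). All 6 lay in the largest dense stretch. Of the 9 silencers of at least 900 bp in the whole K562 list, 3 were there, and the same held for 3 of 9 in LNCap. Of those of at least 600 bp, 8 of 172 in K562 and 12 of 175 in LNCap lay in the dense stretches. In 293T the widest were chr15:20246601-20247051 and chr21:10332951-10333401, both 450 bp, and chr15:20269167-20269567, 400 bp, which overlapped K562.

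Many starts lay on a 50 bp grid, either at an exact multiple of 50 or 1 base past it. Over the windows pooled these were commoner than elsewhere, but not evenly so. Starts off the grid were 22.5% of 293T members against 41.7% in the rest of the genome, 27.9% against 50.4% in K562, and 42.6% against 52.99% in LNCap. Starts 1 base past the grid were 67.2% against 53.6%, 59.3% against 43.3%, and 47.7% against 43.8%. Exact multiples made up 10.3% of 293T members (7.25 to 14.5), against 4.68% elsewhere, 12.7% of K562 members (9.72 to 16.5), against 6.29%, and 9.69% of LNCap members (6.65 to 13.9), against 3.23%. Outside the dense stretches the shares were 9.92%, 15.8% and 12.4%. Over the windows, members at exact multiples had a median score of 2.9 in 293T (28 members), 2.4 in K562 (47) and 2.7 in LNCap (25). Starts 1 base past the grid had medians of 2.5, 2.3 and 2.2. The order was reversed on chromosome 22 in 293T, at 2.4 (11 members) against 2.5 (76). It was also reversed on chromosome 13 in K562, at 2.3 (5 members) against 2.5 (17). In K562 both medians were equal on chromosomes 14 (2.4), 15 (2.2) and 21 (2.2). Only chromosome 22 (2.5 against 2.3) had the pooled order in that list. Members at exact multiples were also wider, with median widths of 71, 101 and 150 bp in 293T, K562 and LNCap against 50 bp in each. These medians were not taken for the rest of the genome. No source used here says how the starts were set.

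The upper edges of the windows are set by position, and 2 of the 5 fall in sparse ground. With every edge 0.5 Mb higher the members would be 376 in 293T, 483 in K562 and 362 in LNCap. On chromosome 15 the last members ended at 20353449 for 293T, 20657801 for K562 and 20734151 for LNCap, and the next silencers began at 21601051, 21534951 and 21534601. On chromosome 14 they ended at 19106851, 19230900 and 18681489, with the next at 19682651, 19614451 and 19617501. On chromosomes 13 and 22 the nearest silencers outside began within 0.05 Mb of the edge, at 18925000, 18910750 and 18917701 and at 17447051, 17405237 and 17402051. On chromosome 21 a K562 silencer ended at the edge itself (chr21:12999947-13000000, score 2.8). The next followed at 13000100 in K562, 13000901 in LNCap and 13000989 in 293T, with scores of 2.0, 2.2 and 2.0. That K562 silencer was the only member of the window above 10809800.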

How the data were processed

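The analysis used the authors' 3 silencer lists, whose headers name positions and an activity. Activity is a score deposited by the authors, with an unstated scale, so levels were compared only within a list; scores of different lists stand side by side for shared regions, and 1 rank correlation is given. Bowtie2, SAMtools and hg38 are named in the submitters' processing notes; the region caller, its thresholds and how libraries were pooled are details not given in the sources used. Read depth is unknown. Broken lines, impossible positions and widths over 5000 bp were left out (58, 12 and 25 lines in 293T, K562 and LNCap), and coordinates are printed as deposited.

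Members were chosen by midpoint. Shares carry 95% Wilson intervals, counts exact Poisson intervals and ratios exact conditional intervals. Named regions are those held by all 3 lists, the 5 highest scores and 3 widest of each list, the 8 fullest 100 kb bins, bins past 2 times or 0.5 times, runs of at least 5 silencers and the window edges. Windows and rules were chosen with earlier results of these data known. Gene annotation and base composition were not used here. Functions were tested on simulated lists. The software was Python 3.11.15 with scipy 1.17.1, pandas 2.3.3 and numpy 2.4.6, and matplotlib 3.10.9 for figures. Alternatives moved the window edges, merged neighbours, changed bin sizes and overlap rules, kept high scores only, or left out 1 window; alternatives on sequence were not run.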

Additional observations from a re-analysis of the deposited data

How the results depend on the processing

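Of 241 alternative values for 28 results, 168 stayed within the interval of the reported value or, for counts, within 1.5 times of it. No paired analysis was possible because there is 1 list per line and no test. The density ratio changed direction with the bin size. It was 1.18, 1.50 and 1.02 in 293T, K562 and LNCap per occupied 10 kb bin, and 0.370, 0.470 and 0.320 per occupied 1 Mb bin. Among scores above the list median, with occupied bins redefined from those silencers, it was 0.966, 1.02 and 0.667. With edges moved up by 0.5 Mb it was 0.747 in 293T and 0.654 in LNCap. In K562 and LNCap it was 0.702 and 0.472 after merging lines within 500 bp, 0.669 and 0.373 without the chromosome 21 window, and 0.536 and 0.315 without the 3 dense stretches, an alternative added after the data were seen.

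Without the dense stretches 240 members were left in K562 and 145 in LNCap. The K562 to 293T ratio turned to 0.890 and the LNCap to 293T ratio was 0.524. Without the chromosome 21 window the members were 220 and 126, and the ratios 1.06 and 0.594, with 1.79 for K562 to LNCap. Without the chromosome 22 window the members were 152, 221 and 170 in 293T, K562 and LNCap. Above the median score the first 2 ratios were 1.06 and 0.691.

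Overlap shares in the order 293T in K562, 293T in LNCap, K562 in 293T, K562 in LNCap, LNCap in 293T and LNCap in K562 were 1.11%, 1.48%, 0.813%, 8.401%, 1.55% and 12.0% with at least 50% of both intervals. With midpoints within 500 bp they were 12.2%, 11.4%, 10.0%, 33.3%, 13.6% and 46.5%. Above the median score 293T in K562 was 1.92%, K562 in 293T 1.60%, K562 in LNCap 17.02% and LNCap in K562 23.9%. K562 in LNCap was 11.8% without chromosome 21, 27.1% without chromosome 22 and 9.58% without the dense stretches. LNCap in K562 was 23.02% without chromosome 21, 16.6% without the dense stretches and 25.97% with edges moved up. Regions in all 3 lists numbered 9 with edges moved up, 3 with edges moved down, 2 above the median score and 0 without chromosome 22. With midpoints within 500 bp the unit changed, and 293T members near a silencer of both other lists were counted in place of merged regions. There were 16 of them, beside 2 members of 293T that overlapped both other lists by at least 1 bp.

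Bins high for 293T numbered 2 at 20 or more silencers per bin, 5 in bins of 250 kb and 2 at 3 times. Bins low for 293T numbered 5 at 20 or more silencers and 3 at 3 times. K562 was high in 3, 8 and 3 bins under these settings and low in 0 at 20 or more silencers. LNCap was low in 2 at 20 or more silencers and 5 at 3 times. The share of such bins in the genome was not taken under these settings, so the counts have no background beside them. At 20 or more silencers fewer bins qualify than the 27 of the main setting, which by itself lowers the counts. The median K562 width of 89 bp was 50 bp among members that overlap no other list, without chromosome 21 and without the dense stretches. The median LNCap score was 2.4 without chromosome 21. Apart from these settings' own construction, the cause was not tested.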
